A study of Homo sapiens with 80 samples.

Results

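The 10 genes described here encode the classical immediate early factors of the AP-1 and EGR families: FOS, FOSB, JUN, JUNB, JUND and ATF3 as subunits of AP-1, EGR1, EGR2 and EGR3 as zinc finger factors, and IER2. They were the rows of the deposited count table whose Ensembl identifier carries one of these symbols, 10 of 60663 genes. The libraries came from Jurkat T cells (clone E6-1), a human leukaemic T lymphocyte line grown with serum, and all libraries were depleted of ribosomal RNA. In the first experiment, cells in pipettes were exposed to 9 g on a pipette centrifuge, with 6 libraries per group. The shortest exposures lasted 20 s and 75 s (hypg20s and hypg75s), the others 3, 5, 7, 9, 15 and 60 min (groups hypg3, hypg5, hypg7, hypg9, hypg15 and hypg60, each named by its minutes). The controls were pipettes kept at 1 g, Ctrl for 15 min and Ctrl60 for 60 min. Cells exposed for up to 15 min shared a total pipette time of 15 min, so that a short exposure came at its end. In the second experiment, 4 libraries per group came from cells lysed directly (Ctrl300g), from cells spun at 300 g for 5 min and lysed 1 min (wait1min), 4 min (wait4min) or 15 min (wait15min) after the stop, and from cells held in a 42 °C water bath (heat). The comparisons ask how fast these genes respond to hypergravity, to a routine laboratory spin and to heat.

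Immediate early genes are transcribed within minutes of a stimulus because their activators are already present in the cell, and their mRNAs and proteins are short-lived. AP-1 is a dimer of basic leucine zipper proteins, formed by a JUN protein with a FOS, JUN or ATF partner, and it binds TGA-containing sites in promoters and enhancers. EGR proteins bind GC-rich sites, and in T cells EGR2 and EGR3 are known as brakes on activation, while EGR1 and AP-1 are known from signalling by the T cell receptor through MAP kinases and serum response factor.

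The promoters in which a searched motif was found are shown because EGR1 later stands apart from all other genes in 2 comparisons, and because EGR2 carries one of the same boxes. The EGR3 promoter was not used here. RefSeq promoters (GRCh38.p14) were matched by symbol for 9 of the 10 members at 12 starts, and the 250 bases before each start were searched on both strands for the cyclic AMP response element (CRE, TGACGTCA), the AP-1 site (TGANTCA), the EGR site (GCGNGGGCG) and the CArG box, the core of the serum response element. Capitals mark a match, and the sequences run 5′ to 3′ on the gene's strand.

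EGR1, chr5:138465229-138465478, plus strand: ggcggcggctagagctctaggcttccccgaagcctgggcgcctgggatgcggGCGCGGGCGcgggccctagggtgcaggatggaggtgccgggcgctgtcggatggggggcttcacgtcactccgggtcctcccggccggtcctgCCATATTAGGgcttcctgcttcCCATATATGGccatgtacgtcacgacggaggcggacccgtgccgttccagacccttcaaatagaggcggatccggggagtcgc
EGR2, chr10:62816367-62816616, minus strand, 1 of 3 starts: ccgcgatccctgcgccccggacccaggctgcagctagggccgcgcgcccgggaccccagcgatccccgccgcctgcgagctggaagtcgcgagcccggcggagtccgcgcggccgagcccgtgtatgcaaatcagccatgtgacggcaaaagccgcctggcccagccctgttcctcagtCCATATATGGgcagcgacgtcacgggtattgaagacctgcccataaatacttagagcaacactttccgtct
JUND, chr19:18281623-18281872, minus strand: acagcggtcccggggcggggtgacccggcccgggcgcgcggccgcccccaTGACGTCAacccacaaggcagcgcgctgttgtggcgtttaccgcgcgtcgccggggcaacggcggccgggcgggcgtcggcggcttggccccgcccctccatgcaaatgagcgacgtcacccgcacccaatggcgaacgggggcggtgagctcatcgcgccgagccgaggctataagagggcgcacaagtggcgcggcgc

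EGR1 held 2 CArG boxes, CCATATTAGG from base 105 to base 96 and CCATATATGG from base 83 to base 74 before its start, and 1 EGR site from base 198 to base 190. EGR2 held the box CCATATATGG from base 71 to base 62, and JUND held a CRE from base 200 to base 193. Of 35116 RefSeq promoters searched over the same window, 1.16% held a CArG box, 8.41% an EGR site, 1.65% a CRE and 6.57% an AP-1 site. FOSB, JUNB, JUND and IER2 lie on chromosome 19, JUN and ATF3 on chromosome 1, and FOS on chromosome 14. EGR1 spans chr5:138465479-138469303 and JUN chr1:58776845-58784048 (GRCh38). In the promoters of FOS, FOSB, JUN, JUNB, ATF3 and IER2 these letters were not found in this window. Sites with other letters, or further upstream, were not searched for.

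Library totals lay between 22634465 and 41893490 counts at 9 g (59 libraries, without library 75 of hypg15, which has 0 counts on chromosomes 4 to 9, on X, Y and MT) and between 24417717 and 41220541 in the second experiment (20 libraries). All 10 T lymphocyte markers were detected in every library, with CD3E at 378.5 to 612.2 CPM, while MS4A1, CSF1R, EPCAM, CDH1 and COL1A2, markers of B cells, monocytes, epithelial cells and fibroblasts, had a median of 0. CD79A (30.4 to 68.7 CPM) and COL1A1 (3.67 to 9.04 CPM), listed as B cell and fibroblast markers, were present in all. CD14 (0.0872 to 0.724 CPM) and PDGFRB (0.0645 to 0.543 CPM), markers of monocytes and fibroblasts, were low but present in all, and CD14 was called higher at hypg60 (0.97). The mean GC content of the counts was 52.05% to 52.42% in Ctrl300g but 48.93% to 49.26% in the 12 libraries spun at 300 g, and 52.21% to 52.42% after heat. The mitochondrial share of the counts was 1.33% to 1.6% in Ctrl, and all 9 g groups from hypg75s to hypg15 lay above it without overlap, at 1.67% to 3.32%, but hypg20s (1.49% to 1.73%) did not. It was 2.12% to 2.67% at hypg60 against 1.16% to 1.38% in Ctrl60, and 2.23% to 2.48% after 300 g and 2.33% to 2.47% after heat against 2.03% to 2.12% in Ctrl300g. Its part in the members' values was not tested. The library numbers of hypg3 and hypg15 run from 69 to 80, apart from all other 9 g groups. Every group fills a single unbroken run of numbers. In all comparisons, any difference between number ranges therefore cannot be told apart from the exposure. The column names of Ctrl60 mention HEPES and those of hypg60 do not, so a difference in buffer cannot be told apart from the 60 min exposure either. The column names of wait1min read instant and those of wait4min read 1min. Their sample titles give 1 min and 4 min, the times used here. The labels do not say that libraries of a group came from separate cultures, and p-values then measure only the spread between these samples.

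Levels are given as normalised CPM, the count of a gene per 1e6 counts of the library (CPM) after scaling by its TMM factor, which corrects for the composition of the library. Compared per kilobase of exon, the members formed 4 tiers in Ctrl. JUND (mean 33.6 normalised CPM per kb), IER2 (32.3) and JUNB (30.5) were highest, with overlapping ranges over the 6 libraries. JUN (4.53), ATF3 (4.07) and EGR1 (2.66) followed, of which JUN and ATF3 overlapped and EGR1 lay below both, and then FOSB (0.589) and FOS (0.509), which overlapped. EGR3 (0.218) and EGR2 (0.0896) were lowest, without overlap. FOS, the partner that gives AP-1 its stimulated form, was thus among the low members in unstimulated Jurkat cells, with 45 to 62 counts per library in Ctrl and 25 to 31 in Ctrl300g.

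EGR2 was too low to test. It had 1 to 20 counts in any library and did not pass the filter on low counts (edgeR's filterByExpr at a minimum count of 10) in any of the 12 comparisons with an own control. The other 9 members were tested in all 12, of which FOS with 22 to 72 counts and EGR3 with 7 to 72 counts per library were the thinnest. A gene was called at an adjusted p under 0.05 in edgeR's quasi-likelihood test, with Benjamini-Hochberg adjustment over all genes tested.

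**Figure D1:**
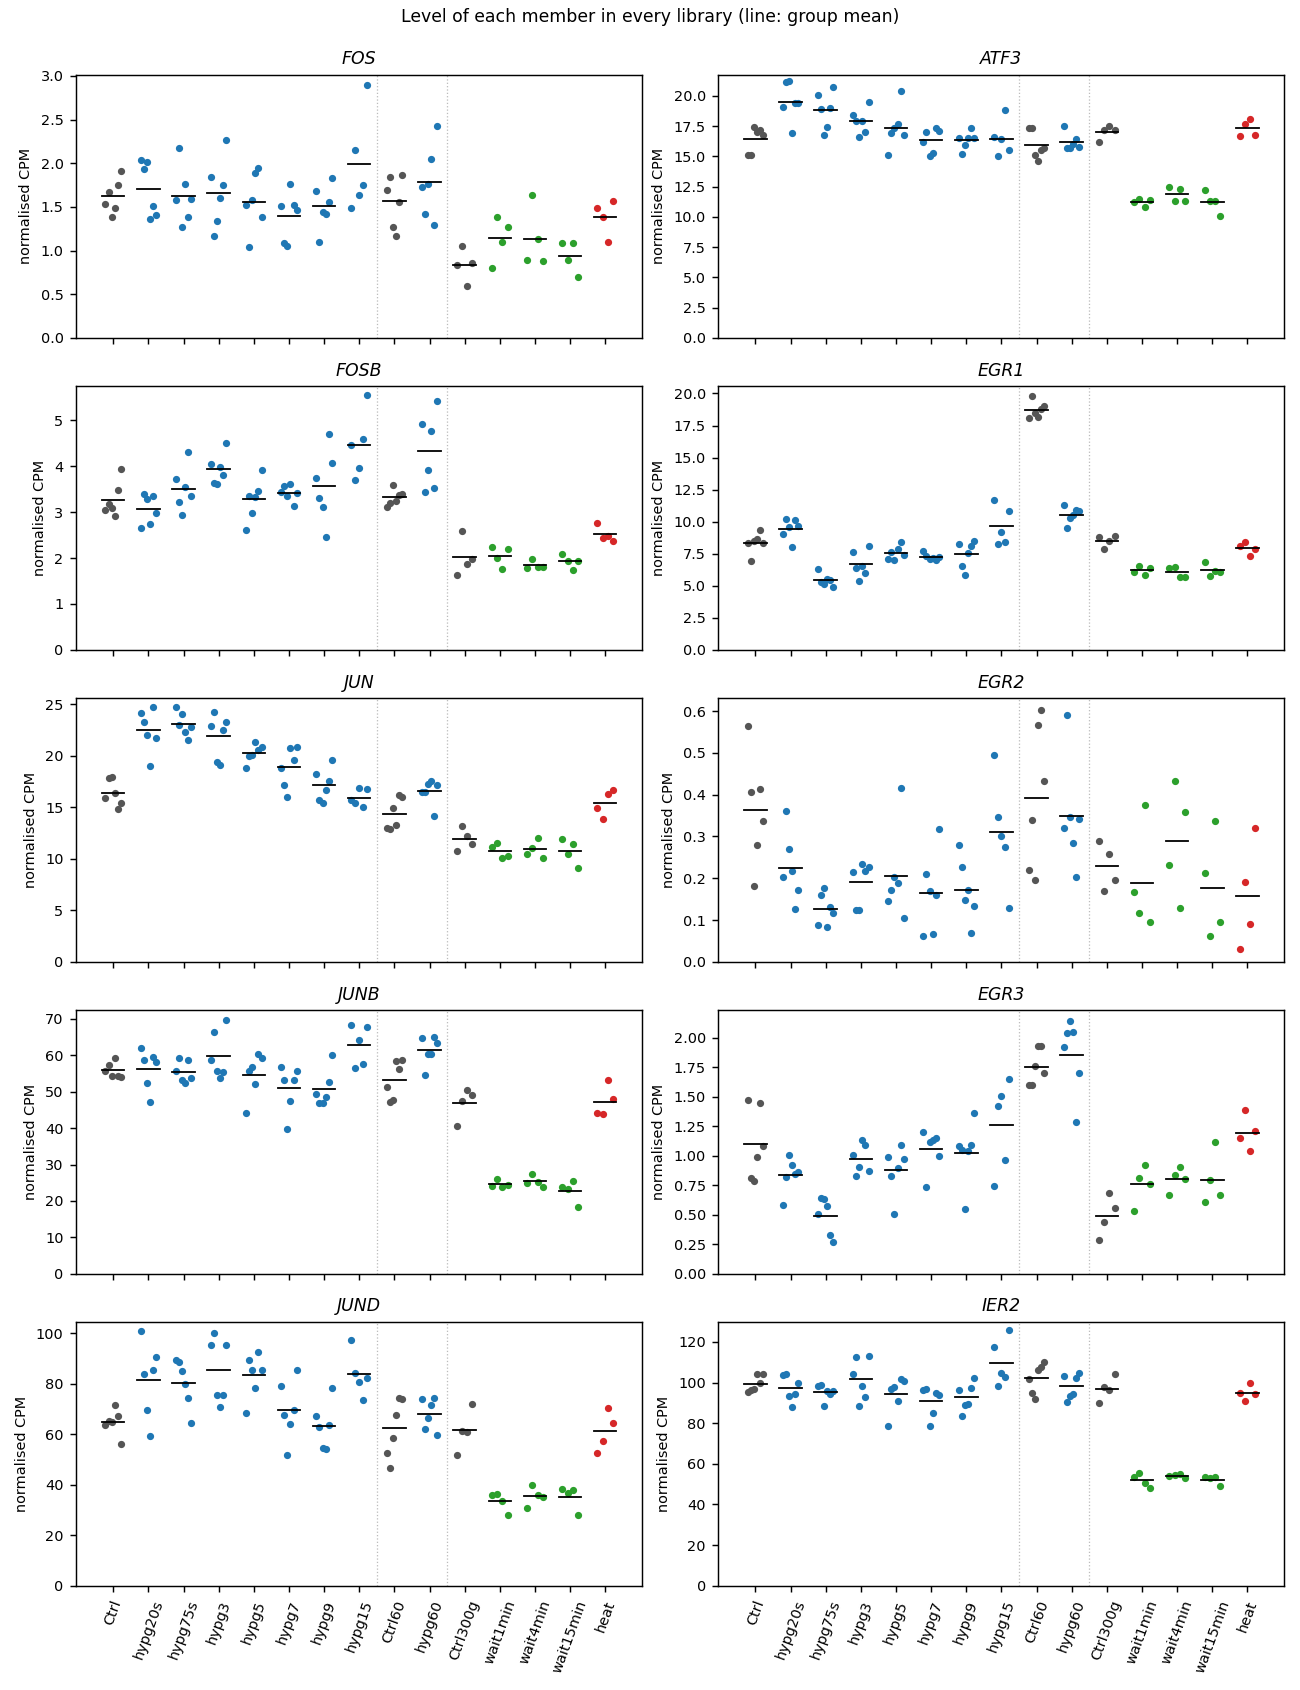
Normalised CPM (linear axis from 0) of each of the 10 members in every library of the 15 groups, controls in grey, 9 g in blue, 300 g in green and heat in red, with a line at each group mean; dotted lines separate the 60 min pair and the second experiment. JUN is raised in the first 9 g groups and falls back, EGR1 is highest in Ctrl60 with 18.1 to 19.8 normalised CPM, and IER2, JUNB and JUND are far below Ctrl300g in all 300 g groups.

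Among the members, 3 of 9 were called at hypg20s (all genes, 15.2% called) and 5 of 9 at hypg75s (31.3%). In hypg3 there were 3 (41.3%) and in hypg5 2 (6.02%). None was called at hypg7 (12.8%) or hypg9 (19.6%) by edgeR, while hypg15 had 3 (53.4%) and hypg60 had 3 (30.1%). At 300 g, 6 were called at wait1min (81.5%), 7 at wait4min (82.2%) and 7 at wait15min (82.3%), and after heat 3 were called (20.8%), all of them higher (10.6% of all genes). The members' share lay close to the background at hypg60 and below it at hypg3, at hypg15 and at all waiting times after 300 g. Of the fits without a call, JUN, EGR1 and IER2 had an unadjusted p under 0.05 at hypg7, where DESeq2 called 1 member. At hypg9 JUNB alone had one (1 of 9), and DESeq2 called none. With each gene corrected for its GC content, 3 members were called at hypg7 and 4 at hypg9. A single model of all groups called 2 and 1, and a correction for exon length called 0 and 1. The median log2 fold change of the 9 tested members was between −0.09 and 0.19 in the 8 comparisons at 9 g, beside −0.02 to 0.02 over all genes, and −0.52 to −0.48 at 300 g, beside 0.01.

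**Figure D2:**
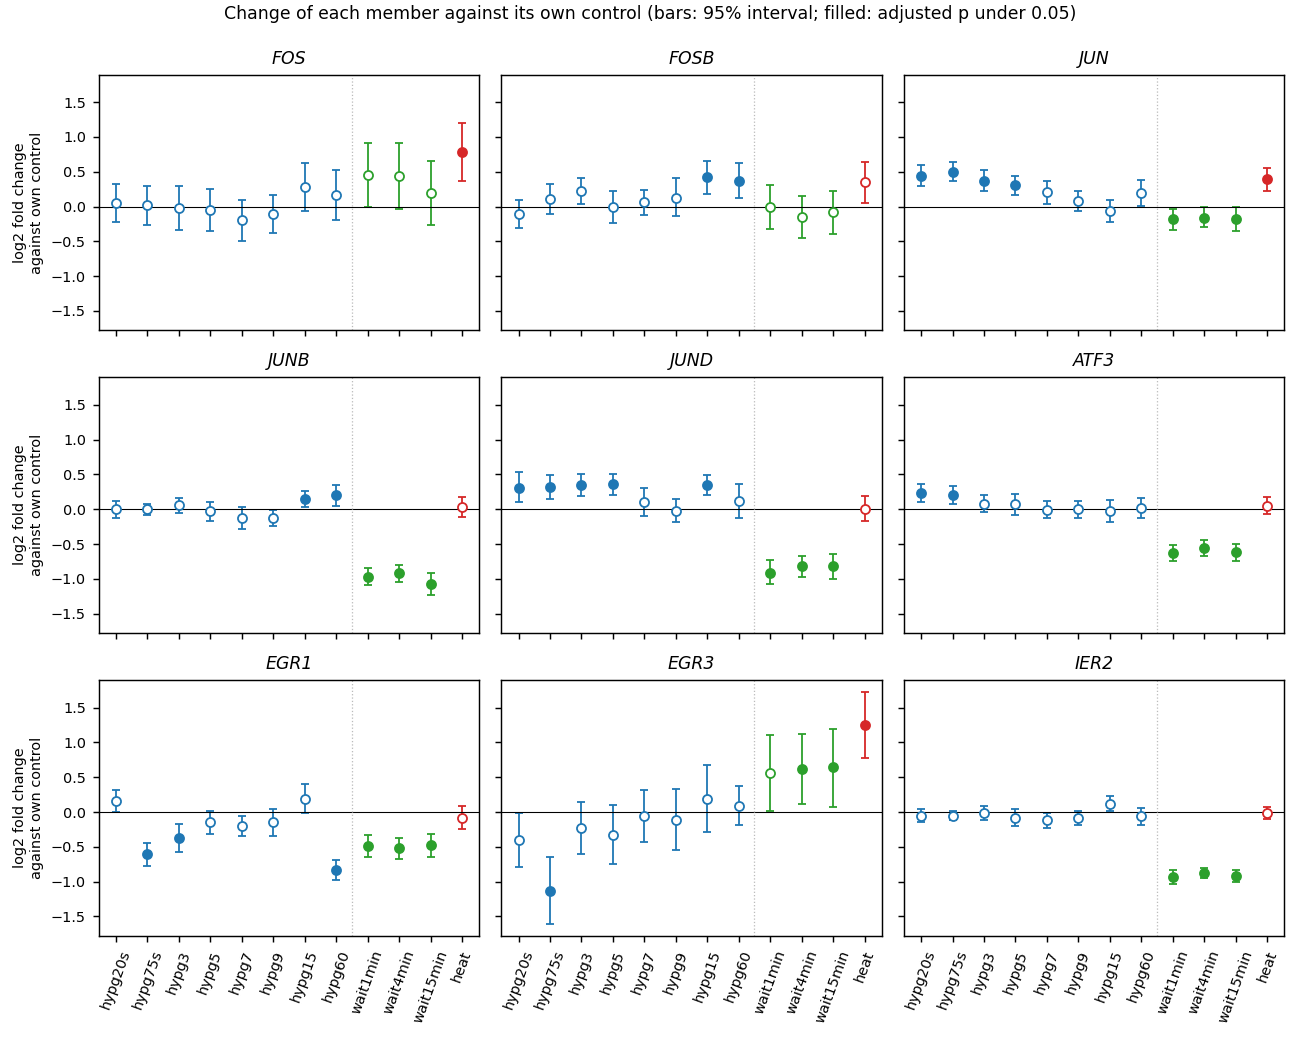
Log2 fold change (vertical axis) of the 9 tested members against their own control in the 12 comparisons, with 95% intervals; filled points passed an adjusted p of 0.05 (edgeR), and colours are as in the plot of levels. JUN declines from 0.50 at hypg75s to −0.06 at hypg15, and JUNB, JUND, ATF3, EGR1 and IER2 lie below 0 at all 3 waiting times after 300 g.

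JUN, the founding partner of AP-1, rose within 20 s of 9 g and overlapped with the control again from 7 min on. Ctrl ran from 14.8 to 18.0 normalised CPM with a median of 16.2, hypg20s from 19.0 to 24.8 (median 22.7), hypg75s from 21.5 to 24.8 (22.9), hypg3 from 19.1 to 24.3 (22.7) and hypg5 from 18.8 to 21.4 (20.4). None of these 4 groups overlapped with Ctrl. In bulk libraries, fewer cells with a transcript and less of it per cell cannot be told apart. At hypg7 the range was 16.0 to 20.9, at hypg9 15.4 to 19.6 and at hypg15 15.0 to 16.9, all overlapping with Ctrl. The log2 fold change was largest at hypg75s, 0.50 ± 0.07 (SE, 6 against 6 libraries, adjusted p = 7.2e-05, edgeR), and 0.44 ± 0.07 before that at hypg20s (0.0012). It came to 0.37 ± 0.07 (0.00062) after 3 min and to 0.31 ± 0.06 (0.012) after 5 min. It was 0.21 at hypg7 (95% interval 0.04 to 0.37, adjusted p = 0.089) and 0.08 at hypg9 (−0.07 to 0.23). Adding 3 surrogate variables moved hypg9 far from these values, to −0.68 for JUN, −0.90 for JUND, −0.91 for EGR1 and −2.23 for EGR3, none of them called. Compared directly, hypg9 was lower than hypg75s by −0.43 ± 0.06 (adjusted p = 0.002), and the ranges of these groups did not overlap. Correcting each gene for its GC content kept the JUN calls at hypg20s to hypg5, at 0.24 to 0.39, and added a lower call at hypg15 (−0.26). With 3 surrogate variables, JUN kept its call at hypg20s (0.42) but not at hypg75s (0.58), hypg3 (0.26) or hypg5 (0.51). At hypg60 JUN was 0.20 above Ctrl60 (0.01 to 0.38, adjusted p = 0.099).

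JUND, a JUN relative with a steady basal level and a CRE in the promoter shown above, was higher at the same early times and again at 15 min. Ctrl ran from 56.3 to 71.5 normalised CPM (median 65.1) and hypg5 from 68.4 to 92.6 (85.5), and the 5 libraries of hypg15 had 97.5, 84.2, 80.7, 73.7 and 82.2. Only hypg15 lay wholly above Ctrl. The log2 fold change was similar at each of these times: 0.31 ± 0.10 after 20 s (adjusted p = 0.046, edgeR), 0.32 ± 0.08 after 75 s (0.0076), 0.35 ± 0.08 after 3 min (0.002), 0.36 ± 0.07 after 5 min (0.0095) and 0.35 ± 0.07 after 15 min (0.00055). Between them it was 0.11 at hypg7 and −0.02 at hypg9, without a call. JUND has the highest GC content of the members, 69.7%, and with the GC correction its call remained at hypg5 alone (0.20), while hypg15 came to −0.02 and hypg9 to a lower call of −0.13. The mean GC content of the counts was 52.05% to 52.71% in Ctrl and reached 52.72% to 53.47% at hypg3 and 53.07% to 54.04% at hypg15, above all of Ctrl. With 3 surrogate variables it was called at hypg20s (0.35) and hypg5 (0.63).

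JUNB, which can restrain the activity of JUN, was not called in the first 9 min. Its log2 fold change was between −0.13 and 0.06 from hypg20s to hypg9, with 95% intervals that ran from −0.28 to 0.16. It rose slightly at hypg15 (56.4 to 68.3 normalised CPM against 54.1 to 59.3 in Ctrl; log2 fold change 0.15 ± 0.05, adjusted p = 0.026) and at hypg60 (54.7 to 65.0 against 47.3 to 58.8 in Ctrl60; 0.20 ± 0.07, adjusted p = 0.043). Both pairs of groups overlapped. Leaving out library 76, 78 or 80 of hypg15 ended the first call (0.12 to 0.13), and the GC correction turned it to −0.15 and took the second to 0.04, which was not called. Without the filter on low counts the call at hypg60 ended as well.

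ATF3, a stress-induced AP-1 partner, moved with JUN at the first 2 times alone. Its range was 15.1 to 17.4 normalised CPM in Ctrl, 16.9 to 21.2 at hypg20s and 16.8 to 20.7 at hypg75s. The log2 fold change was 0.23 ± 0.06 (adjusted p = 0.023) and 0.20 ± 0.06 (0.017), and in the other 9 g comparisons it lay between −0.02 and 0.08. ATF3 was lower at hypg9 than at hypg75s (−0.20 ± 0.05, adjusted p = 0.046). With the GC correction it was called at hypg3 as well (0.16), and with 3 surrogate variables it was called at neither hypg20s (0.18) nor hypg75s (0.37).

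FOS itself showed no call at any time at 9 g. The 9 g groups ran from 1.04 to 2.9 normalised CPM and Ctrl from 1.39 to 1.91, with overlap in every comparison. The 95% intervals of the log2 fold change ran from −0.49 at hypg7 to 0.63 at hypg15. Their upper limits were 0.33, 0.30, 0.29 and 0.25 at hypg20s, hypg75s, hypg3 and hypg5. These lay below the change of JUN at the same times. The intervals at hypg15 (to 0.63) and hypg60 (to 0.52) held increases of that size. FOSB, the second FOS protein, was higher late. It reached 4.47, 3.69, 3.97, 4.59 and 5.54 normalised CPM at hypg15 against 2.91 to 3.94 in Ctrl (log2 fold change 0.42 ± 0.11, adjusted p = 0.0062) and 3.43 to 5.41 at hypg60 against 3.11 to 3.59 in Ctrl60 (0.37 ± 0.12, adjusted p = 0.029). The ranges overlapped in both cases, neither call remained with the GC correction (0.20 and 0.22), and with 3 surrogate variables the values were −0.13 and −0.04. Without the filter on low counts the call of FOSB at hypg60 ended, as 1 member alone, EGR1, was called there. Heat shock genes were called higher at these times too: HSPA1B by 0.63 at hypg15 and by 2.69 at hypg60, and DNAJB1 by 0.34 and 1.46, while HSPH1 was lower at hypg15 (−0.84) and not called at hypg60 (0.28). Their part in the changes of FOSB and JUNB was not tested.

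EGR1 fell within little more than a minute. It ran from 6.96 to 9.32 normalised CPM in Ctrl (median 8.42) and from 8.04 to 10.2 at hypg20s (9.62), then from 4.9 to 6.33 at hypg75s (5.36) and from 5.41 to 8.11 at hypg3 (6.48). All 6 libraries of hypg75s were below all of Ctrl and all of hypg20s. The log2 fold change against Ctrl was 0.16 (95% interval 0.00 to 0.32, adjusted p = 0.16) at hypg20s, −0.61 ± 0.08 (adjusted p = 7.9e-05) at hypg75s and −0.37 ± 0.09 (0.0054) at hypg3. From hypg5 to hypg9 it lay between −0.20 and −0.15 without a call, and at hypg9 EGR1 was higher than at hypg75s (0.46 ± 0.10, adjusted p = 0.017), when 5 of 9 tested members were called against 5% of all genes. With the GC correction EGR1 was called lower at hypg5, hypg7 and hypg9 too (−0.24 to −0.21). With 3 surrogate variables the values at hypg75s (−0.55) and hypg3 (−0.63) were no longer called.

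A direct comparison of hypg75s with hypg20s, added after these values were seen, singled out EGR1. Of 16187 genes tested, 1 was called (0.00618%), and it was EGR1, at −0.77 ± 0.08 (adjusted p = 0.0009, edgeR). UBAP1L, the gene with the next smallest p, had an adjusted p of 0.061. EGR1 was called under each of 8 alternative settings, at −0.81 to −0.74, but it was the sole call only with RLE factors, and the others called between 2 and 269 genes. JUN was not called between these times (0.06, 95% interval −0.08 to 0.19).

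EGR3, a target of calcium signalling in T cells, had its lowest 9 g level at the same time as EGR1. Its range was 0.784 to 1.47 normalised CPM in Ctrl (22 to 49 counts) and 0.272 to 0.641 at hypg75s (7 to 21 counts), without overlap. The log2 fold change at hypg75s was −1.13 ± 0.23 (adjusted p = 0.002), and it was −0.40 at hypg20s (95% interval −0.79 to −0.01, adjusted p = 0.15) and −0.23 at hypg3 (−0.61 to 0.15). EGR3 was higher at hypg9 than at hypg75s by 1.02 ± 0.24 (adjusted p = 0.024). With 3 surrogate variables the value at hypg75s was −2.45 and not called. EGR2 had 6 to 18 counts in Ctrl and 3 to 5 at hypg75s, again without overlap. When no filter on low counts was applied, EGR2 came to −1.51 ± 0.36 at hypg75s (adjusted p = 0.0038) and −1.0 ± 0.33 at hypg3 (0.038), both from single-digit counts in the 9 g groups. At hypg5, hypg7 and hypg9 it was −0.82 (adjusted p = 0.26, edgeR), −1.08 (0.094) and −1.05 (0.052), without a call. All 3 EGR genes thus had their lowest 9 g mean at hypg75s, as had none of the AP-1 members.

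The 60 min control, whose column names mention HEPES while those of Ctrl do not, had a high level of EGR1, so that time and buffer cannot be told apart in its comparison with Ctrl. Ctrl60 ran from 18.1 to 19.8 normalised CPM (median 18.6), far above the 6.96 to 9.32 of Ctrl, and hypg60 lay between them at 9.48 to 11.3 (10.6). No 2 of these 3 groups overlapped. In Ctrl60 against Ctrl, EGR1 was higher by 1.16 ± 0.06 (adjusted p = 3e-07), one of 2 calls among 16109 genes (0.0124%) and the only increase; PHF13 was the other, at −0.28. This value was 1.15 to 1.17 under the alternatives, which called 1 to 197 genes. Accordingly hypg60 was lower than Ctrl60 by −0.83 ± 0.07 (adjusted p = 1.9e-06) and, in a comparison added after seeing the data in which 3 of 10 tested members and 32.2% of all genes were called, higher than Ctrl by 0.33 ± 0.08 (0.0067). The fall at hypg60 was larger than at hypg9, by −0.67 ± 0.11 (adjusted p = 0.0014), and EGR1 was the 1 member of 10 called in this test of the difference (all genes, 2.04%). EGR3 was at 1.6 to 1.93 normalised CPM in Ctrl60 and 1.29 to 2.14 in hypg60 against 0.784 to 1.47 in Ctrl. Its log2 fold change was 0.66 ± 0.16 in Ctrl60 against Ctrl (adjusted p = 0.62, edgeR, groups without overlap), 0.09 (95% interval −0.19 to 0.37) in hypg60 against Ctrl60 and 0.75 ± 0.18 (adjusted p = 0.0052) in hypg60 against Ctrl.

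**Figure D3:**
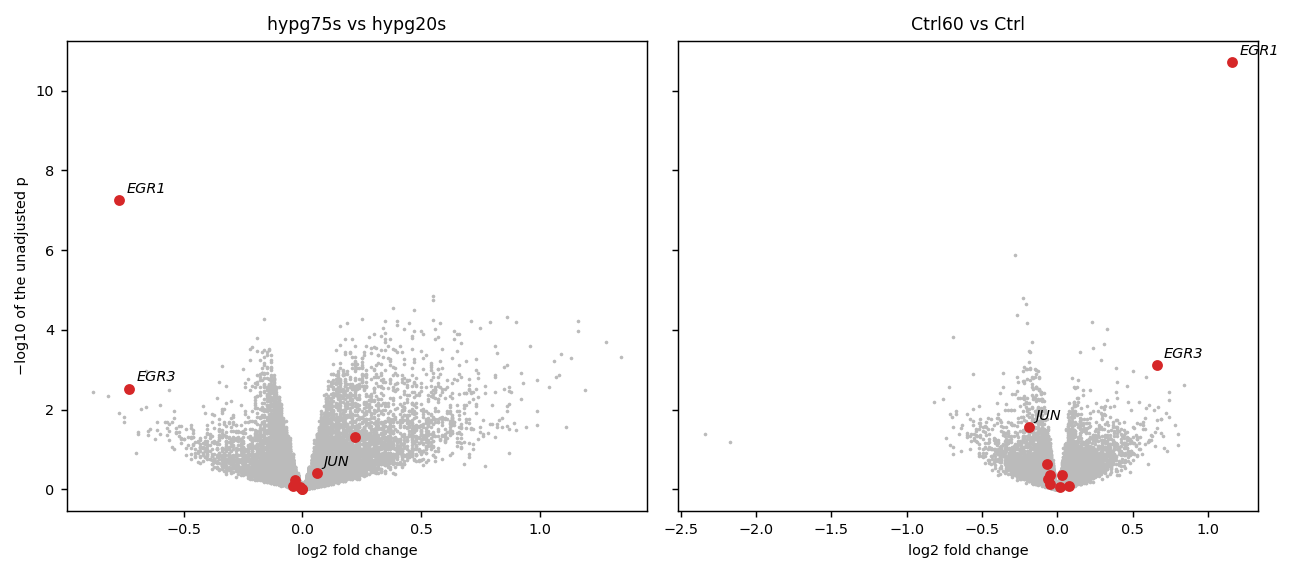
Log2 fold change (horizontal axis) and −log10 of the unadjusted p (vertical axis) of all genes tested in hypg75s against hypg20s (left) and in Ctrl60 against Ctrl (right), members in red. EGR1 lies alone above all other genes in both, at −0.77 and at 1.16, and EGR3 lies on the same side of 0 in each.

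IER2, a nuclear protein whose gene is induced together with FOS and JUN in many cells, was not called at 9 g. Ctrl ran from 95.3 to 104.1 normalised CPM and the 9 g groups from 78.6 to 125.8, and the 95% intervals of the log2 fold change lay within −0.23 and 0.23 in all 8 comparisons. With the GC correction, however, IER2 was called lower in all 8, by −0.21 to −0.14, and JUNB in 6 of them, by −0.23 to −0.15.

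The spin at 300 g gave another picture: IER2, JUNB and JUND fell to 0.476 to 0.565 times the control level over the 3 waiting times. IER2 had 90.2 normalised CPM in the lowest of the 4 Ctrl300g libraries, with a median of 97.1, and 53.7, 55.6, 50.6 and 47.9 at wait1min. JUNB had 40.7, 47.4, 50.6 and 49.0 in Ctrl300g and 24.2, 25.9, 23.8 and 24.4 at wait1min. JUND had 51.9, 61.4, 60.7 and 71.9 in Ctrl300g and 35.9, 36.2, 33.6 and 28.1 at wait1min. No spun library reached the lowest control library of these genes. At wait1min the log2 fold change was −0.93 ± 0.05 for IER2 (adjusted p = 7.1e-12), −0.97 ± 0.06 for JUNB (6.3e-11) and −0.91 ± 0.08 for JUND (1.7e-08), with 4 against 4 libraries. ATF3 fell by 0.63 on the log2 scale (16.2, 17.2, 17.5 and 17.2 in Ctrl300g, 11.2, 11.5, 10.8 and 11.4 at wait1min; SE 0.06, adjusted p = 8.9e-09) and EGR1 by 0.49 (8.77, 7.84, 8.46 and 8.89 against 6.05, 6.56, 5.81 and 6.38; SE 0.07, adjusted p = 9e-06). JUN was lower by a small amount, −0.18 ± 0.07 (adjusted p = 0.028), from 10.8, 13.2, 12.2 and 11.4 to 11.2, 11.5, 10.1 and 10.3, which overlapped. This call ended without library 55 or 56 of wait1min or 50 or 51 of Ctrl300g (−0.16 to −0.12), and single libraries also ended it at wait4min and wait15min. The same 6 members were called lower at wait4min and wait15min, at −0.92 to −0.16 and −1.07 to −0.18, and of all genes 40.1% (wait1min), 40.6% (wait4min) and 40.5% (wait15min) were called lower. Of the 10 T lymphocyte markers, 7 were also called lower and 2 higher at wait1min (median −0.56).

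FOS and EGR3 were not among the genes that fell. EGR3 had 0.29, 0.441, 0.683 and 0.558 normalised CPM in Ctrl300g and 0.532, 0.809, 0.925 and 0.762 at wait1min, and it was called higher at wait4min (0.62 ± 0.24, adjusted p = 0.022) and wait15min (0.64 ± 0.27, adjusted p = 0.037) but not at wait1min (0.56, adjusted p = 0.058). Leaving out 1 library ended the call at wait4min for 3 libraries (49 and 50 of Ctrl300g, 59 of wait4min; 0.45 to 0.56) and the call at wait15min for 5 (49, 50 and 52 of Ctrl300g, 62 and 63 of wait15min; 0.42 to 0.67). FOS had 0.838, 1.05, 0.589 and 0.853 in Ctrl300g and 0.798, 1.39, 1.1 and 1.27 at wait1min, a log2 fold change of 0.46 (95% interval 0.00 to 0.91, adjusted p = 0.062), then 0.44 at wait4min (−0.03 to 0.91) and 0.19 at wait15min (−0.27 to 0.65). Without library 53 of wait1min or library 50 of Ctrl300g, FOS was called at wait1min (0.59 in both), and without library 60 of wait4min or 50 of Ctrl300g at wait4min (0.55 and 0.56). EGR3 was called at wait1min without library 53 of wait1min (0.69) or 51 of Ctrl300g (0.81). FOSB lay at −0.15 to −0.01 without a call.

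These values rest on how the spun libraries are scaled. All 3 spun groups held counts of lower GC content than Ctrl300g, as given above. The members that fell most have a GC content of 61.7% (IER2), 64.9% (JUNB) and 69.7% (JUND), EGR3 has 51.9% and FOS 52.6%, but ATF3, which fell too, has the lowest, 46.7%. With the GC correction the falls at wait1min came to −0.45 for IER2, −0.46 for JUNB, −0.39 for JUND and −0.80 for ATF3, all called, that of EGR1 came to −0.15 and was not called, and JUN turned to 0.20, FOS to 0.68, FOSB to 0.41 and EGR3 to 0.74, all called higher. With scaling by total counts alone the median log2 fold change of all genes was 0.25 to 0.27 at 300 g (0.01 with TMM), and JUN then came to 0.06 to 0.10, below that median and not called. The part of the GC difference in the other values was not tested.

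**Figure D4:**
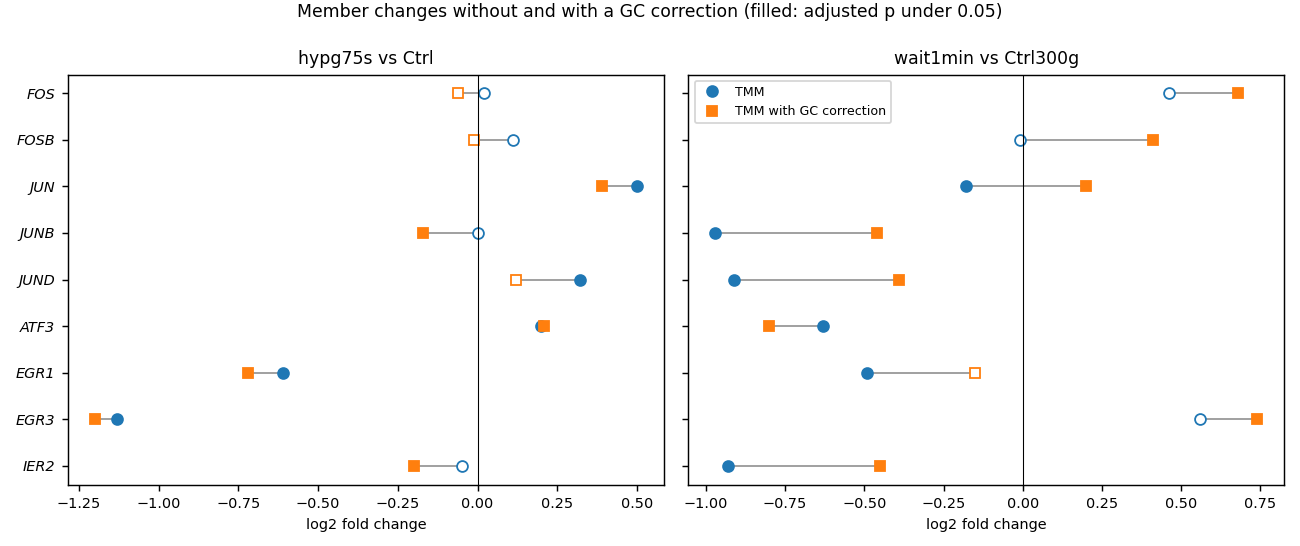
Log2 fold change (horizontal axis) of the 9 tested members in hypg75s against Ctrl (left) and wait1min against Ctrl300g (right), with TMM scaling (circles) and with an added GC correction (squares); filled marks passed an adjusted p of 0.05. At 300 g JUN moves from −0.18 to 0.20 and EGR1 from −0.49 to −0.15, while at hypg75s JUN stays above 0, at 0.39, and EGR1 below it, at −0.72.

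From 1 min to 15 min after the spin no member was called: 0 of 9 passed in wait15min against wait1min by edgeR, where 0.149% of all genes were called, none had an unadjusted p under 0.05, and DESeq2 called none. The 95% intervals were narrow for IER2 (−0.08 to 0.10), JUN (−0.15 to 0.16) and EGR1 (−0.16 to 0.17) and wide for FOS (−0.69 to 0.16) and EGR3 (−0.41 to 0.58). The effect at wait1min was lower than the effect at hypg5, both exposures of 5 min, for JUND (−1.26 ± 0.13), JUNB (−0.93 ± 0.10), IER2 (−0.85 ± 0.09), ATF3 (−0.70 ± 0.10), JUN (−0.48 ± 0.10) and EGR1 (−0.33 ± 0.11), and higher for EGR3 (0.89 ± 0.35), with adjusted p between 8.2e-09 and 0.027 (7 of 10 members and 72.6% of all genes called). Leaving out library 54 or 55 of wait1min or 49 or 50 of Ctrl300g ended the call of EGR3 in this comparison (0.69 to 0.85). The GC correction ended those of JUN (−0.05) and EGR1, which turned to 0.05, and added calls of FOS (0.77) and FOSB (0.47). The experiments also differ in device, vessel and the time before lysis, which cannot be told apart from the acceleration.

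After heat FOS, JUN and EGR3 rose, and the other 6 were not called. FOS had 1.49, 1.39, 1.1 and 1.57 normalised CPM after heat, all above the 0.589 to 1.05 of Ctrl300g (log2 fold change 0.78 ± 0.20, adjusted p = 0.009). JUN had 14.9, 13.9, 16.3 and 16.7 against 10.8 to 13.2 (0.39 ± 0.08, adjusted p = 0.0014). EGR3 had 1.15, 1.39, 1.04 and 1.21 against 0.29 to 0.683 (1.25 ± 0.23, adjusted p = 0.00087). These 3 groups did not overlap with control, and the calls held under all 15 alternatives tried. FOSB was at 0.35 (95% interval 0.05 to 0.64, adjusted p = 0.093) and was called without library 50 of Ctrl300g (0.47). For JUNB, JUND, ATF3, EGR1 and IER2 the log2 fold change lay between −0.08 and 0.05, with intervals from −0.24 to 0.19. The GC correction gave a lower call for IER2 (−0.11). Of the heat shock genes used as a check, HSPA1B rose by 0.63 ± 0.06 and DNAJB1 by 0.17 ± 0.03, HSPH1 fell by 0.32 on the log2 scale, and HSPA1A was at 0.44 (adjusted p = 0.30). Compared with wait1min directly, heat was higher in 7 of 9 members (all genes, 81.1% called and 39.1% higher), with IER2 at 0.83 ± 0.05, JUNB at 0.90 ± 0.06, JUN at 0.48 ± 0.07 and EGR3 at 0.60 ± 0.20. Of these, 4 remained called with the GC correction (JUNB, JUND, ATF3 and IER2), and EGR1 came to −0.01. FOS (0.23, −0.16 to 0.62) and FOSB (0.26, −0.01 to 0.52) showed no call.

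Among 13 further AP-1 and Maf subunits, 10 were tested. Of these 3 rose at hypg20s and 4 at hypg75s, then 2 after 3 min and 1 after 5 min, and none fell at these times (list medians 0.02 to 0.12, all genes −0.02 to 0.00, of which 15.2%, 31.3%, 41.3% and 6.02% were called). MAFK, a small Maf protein without an activation domain of its own, was called in 10 of 12 comparisons: it was higher at 0.40 ± 0.03 at hypg20s, 0.48 ± 0.03 at hypg75s, 0.24 ± 0.04 at hypg7 and 0.55 ± 0.05 at hypg60, and lower at −0.68 ± 0.04 at wait1min. At wait1min 7 of the 10 were lower and 1 was higher (median −0.62), beside 81.5% of all genes called and 40.1% lower: MAFF (−0.88 ± 0.10) and BATF (−0.84 ± 0.09), an AP-1 factor of lymphocytes, were among the lower genes, and ATF2, a CRE-binding factor, was higher by 2.08 ± 0.06. After heat, ATF7 (−0.39 ± 0.06) and MAFG (−0.21 ± 0.04) were lower and none was higher, a share at the background of 20.8%.

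NAB1 and NAB2, corepressors that bind EGR1, parted at 300 g. NAB2, itself known as an EGR target, was lower by −0.83 ± 0.08 at wait1min, and NAB1 was higher by 0.99 ± 0.05. At 9 g NAB2 was higher at hypg20s and hypg75s (0.24 ± 0.05 at both) and at hypg3 (0.17 ± 0.05). Serum response factor and its 5 cofactors were all tested: at hypg75s 2 rose and none fell (all genes, 31.3% called), at hypg60 none was called by edgeR (30.1%), and at wait1min 3 rose and 3 fell (81.5%). ELK4 (1.81 ± 0.04), ELK3 (1.52 ± 0.09) and MRTFB (1.15 ± 0.05) were higher there, and ELK1 (−1.0 ± 0.04) and SRF (−0.84 ± 0.04) were among the lower. Of 14 MAP kinase route genes, all tested, 1 rose and 3 fell at hypg75s and 3 rose and 8 fell at hypg3 (median −0.17, all genes −0.02), beside 31.3% and 41.3% of all genes called. MAP2K1, the kinase before ERK, was called lower in 9 of 12 comparisons, with −0.09 at hypg75s, −0.27 at hypg60 and −0.55 at wait1min.

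Of 29 other immediate early genes, 26 were tested. At hypg75s 4 rose and 5 fell (median 0.06), beside 31.3% of all genes called, and at hypg60 11 rose and 3 fell (median 0.14, all genes −0.02), beside 30.1%. KLF6 and PPP1R15A, a phosphatase subunit of the stress response, were called in 10 of 12 comparisons each: at hypg75s they were at −0.20 ± 0.06 and −0.24 ± 0.04, and at hypg60 at −0.35 ± 0.09 and −0.38 ± 0.06. KLF2 (0.68 ± 0.11), IER5L (0.66 ± 0.12) and NR4A3 (0.83 ± 0.26) rose at hypg60, while GADD45A fell by 0.72 on the log2 scale (SE 0.11). At wait1min 18 fell and 2 rose (median −0.43), beside 81.5% of all genes called and 40.1% lower, with SERTAD1 at −1.20 ± 0.12 and KLF2 at −0.98 ± 0.13. After heat 5 rose and 7 fell (median 0.01), beside 20.8% of all genes called and 10.6% higher, with IER5L (0.90 ± 0.13) and SERTAD1 (0.66 ± 0.11) higher and ZFP36L2 (−0.49 ± 0.03) and KLF10 (−0.39 ± 0.07) lower.

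Genes with a pattern like that of a member were sought over the 15 group means, each centred on the mean of its experiment, limited to genes whose mean reached 10 CPM. IER2 was followed almost exactly by MEN1 (Pearson's r = 0.998) and by GRK2, RPUSD3, RPL28 and NAT10 (0.997 each), where the points share the step between Ctrl300g and the spun groups. JUN came nearest to EXO5 (0.871), SLC25A28 (0.857) and CDC6 (0.85), and EGR1 to KNSTRN (0.812), ASTN2 (0.807) and MLKL (0.797). For FOS no gene came above ENO3 (0.774). These correlations are descriptions of 15 points that share libraries.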

How the data were processed

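RNA-Seq libraries of Jurkat T cells were analysed, 60 of the 9 g time course and 20 of the 300 g and heat experiment, and grouped by their sample titles. The authors deposited raw counts of read pairs per gene. Per the file headers they were made with featureCounts 2.0.3, counting by strand on Ensembl 104 (GRCh38), and the submitters' processing notes give Trim Galore 0.6.5, STAR 2.7.3a and featureCounts 2.0.1. The length column, in another unit (bases of exon), was deposited with them. Opposite-strand exons overlap JUNB, EGR3 and IER2. Library 75 was left out.

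Counts were tested with edgeR 4.0.16 (quasi-likelihood F test, TMM) in R 4.3.3, in models holding only the groups compared. Genes entered by filterByExpr (minimum count 10) and were called at a Benjamini-Hochberg adjusted p under 0.05. The SE was derived from the F statistic. The fits were also run on simulated counts of independent genes with known changes. These counts held no GC or batch difference, so they do not bear on the shifts seen with the corrections. Of the comparisons, 18 were planned and 2 were added after seeing the data. Members and gene lists were chosen with earlier results of these data known. Listed genes were named if called in at least 10 of 12 own-control comparisons or if among the 2 largest rises or falls of their list at wait1min, heat or hypg60. Alternatives were no filter, total counts, RLE factors, DESeq2 1.42.0, all groups in 1 model, a lowess correction (span 0.3) for GC content or exon length, 3 surrogate variables (sva 3.50.0) and leaving out libraries of small groups. GC content came from another annotation release. Promoters came from RefSeq. Python 3.11.15 served for the remaining steps.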

Additional observations from a re-analysis of the deposited data

Results flagged for a closer look

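In 6 of 150 sets of values of 1 member in 1 group, a single library lay far from the others by Dixon's test, where chance flags about 1 in 20. Library 64 of wait15min was low for both JUND (28.1 normalised CPM, the others 36.9 to 38.3) and IER2 (49.0, the others 52.8 to 53.5). Library 47 of hypg60 was low for JUN (14.2, the others 16.5 to 17.6), and library 58 of wait4min was high for FOSB (1.98, the others 1.79 to 1.81). EGR2 was high in library 29 of hypg5 (0.416, the others 0.104 to 0.202) and in library 44 of hypg60 (0.592, the others 0.204 to 0.346), a gene with at most 20 counts per library.

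The effects of 2 exposures differed for 7 members by a test of the difference itself (edgeR). The log2 effect of 60 min at 9 g was lower than that of 9 min for EGR1, by −0.67, where the 60 min control was high itself. The effect at wait1min was lower than that at hypg5 for JUN (−0.48), JUNB (−0.93), JUND (−1.26), ATF3 (−0.70), EGR1 (−0.33) and IER2 (−0.85) and higher for EGR3 (0.89), a share of members near the 72.6% of all genes called there. The GC correction ended the calls of JUN (−0.05) and EGR1 (0.05), and leaving out library 54 or 55 of wait1min or 49 or 50 of Ctrl300g ended that of EGR3 (0.69 to 0.85).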

How the results depend on the processing

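No paired analysis was possible because the library numbers are unique and no number occurs in more than 1 group. Over the alternatives, 1818 of 1974 values of single members kept their direction and their side of the threshold or were not called before and after. The number of members called moved by more than 1.5 times as follows, and the causes were not tested. With the GC correction it was 5 at both hypg3 and hypg5, 3 at hypg7 and 4 at hypg9, 4 in heat against wait1min and 2 in the difference between the hypg60 and hypg9 effects. With 3 surrogate variables it was 0 at hypg75s, hypg3 and hypg15 and in hypg60 against Ctrl, 1 at hypg5 and hypg60, and 2 in Ctrl60 against Ctrl, in hypg9 against hypg75s and in the hypg60 and hypg9 difference. The exon length correction gave 5 at hypg3 and 1 at hypg9, a single model of all groups 2 at hypg7, 1 at hypg9 and 3 in hypg9 against hypg75s, and DESeq2 1 at hypg7. Total counts gave 3 in hypg9 against hypg75s, no filter gave 1 at hypg60, and total counts and DESeq2 gave 2 each in the hypg60 and hypg9 difference. Leaving out 1 library, whether or not the number moved that far, gave 2 to 4 at hypg15, 5 to 8 at wait1min, 6 to 7 at wait4min, 5 to 7 at wait15min, 3 to 4 after heat, 7 to 7 in heat against wait1min, 0 to 0 in wait15min against wait1min and 6 to 8 in the wait1min and hypg5 difference.

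These log2 fold changes turned sign where a call was involved. With the GC correction, JUNB was −0.17 at hypg75s, −0.15 at hypg3 and −0.15 at hypg15, JUND was −0.02 and IER2 −0.15 at hypg15, FOSB was 0.41 at wait1min, JUN was 0.20, 0.19 and 0.18 at wait1min, wait4min and wait15min, and EGR1 was −0.01 in heat against wait1min and 0.05 in the wait1min and hypg5 difference. With total counts JUN was 0.06, 0.10 and 0.08 at the 3 waiting times. With 3 surrogate variables FOSB was −0.13 at hypg15, −0.04 at hypg60 and −0.08 in hypg60 against Ctrl, and JUNB was −0.00 at hypg15. At 300 g the median of all genes was −0.32 to −0.31 with the exon length correction and −0.12 to −0.11 with the GC correction, against 0.01 with TMM alone. Leaving out 1 library of wait1min (55 or 56), wait4min (57, 58 or 60), wait15min (62 or 64) or Ctrl300g (50 or 51) ended the call of JUN at that time, at −0.17 to −0.11. The share of all genes called ranged over the alternatives from 0.043% to 31.1% at hypg75s, from 0.00618% to 43.1% at hypg3, from 0.731% to 54.6% at hypg15, from 1.3% to 12.7% at hypg5 and from 46.1% to 83.2% at wait1min, where the share of increases among calls was 50.8% with TMM, 62% with total counts and 40.7% with the GC correction. Counts of at most 20 limit EGR2, and with 22 to 72 counts of FOS a change of the size of that in JUN was not always detectable.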
